A study of Mus musculus with 6 samples.

Results

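Complex IV (cytochrome c oxidase) genes were followed in WT mouse embryonic fibroblasts (MEFs) by RNA-seq. Genes were taken by name: symbols that begin with Cox and a number, or 1 of 12 listed assembly factors (Sco1, Sco2, Surf1, Coa3, Coa5, Coa6, Coa7, Pet100, Pet117, Taco1, Cmc1 and Cmc2), with at least 10 counts in every library and without -ps in the symbol. Of 55291 listed genes, 43 matched by name, 41 of these did not contain -ps, and 31 had enough counts. These 31 members were 10 nuclear-encoded subunits (Cox4i1, Cox5a, Cox5b, Cox6a1, Cox6b1, Cox6c, Cox7a2, Cox7b, Cox7c and Cox8a), the supercomplex factor Cox7a2l and 20 assembly factors. The cells had received vehicle, MASM7 at 1 μM for 6 h or MFI8 at 20 μM for 6 h, with 2 libraries per group and 6 in all. MASM7 is a small molecule made to activate the mitofusins, the outer membrane GTPases of mitochondrial fusion, and MFI8 is a small molecule made to inhibit them. The series states that the libraries of a group came from independent biological replicates, and names no litter, embryo or culture, nor a time for vehicle. Both compounds were compared with the same vehicle libraries, and since their doses differed they were not compared with each other.

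Complex IV is the last enzyme of the respiratory chain: it takes electrons from cytochrome c, passes them to oxygen and pumps protons across the inner mitochondrial membrane. Its catalytic core is encoded by mitochondrial DNA and carries copper and heme A, while smaller subunits encoded in the nucleus surround that core. Assembly factors make and insert heme A, bring copper, and hold the core subunits while they are built in. Several nuclear subunits exist in pairs, with 1 isoform used in most tissues and another in muscle, lung or testis.

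The libraries held 22791792 to 30677751 counts. The labelled cell type was checked against marker genes. The sum of 8 fibroblast markers, in CPM (counts scaled to a common library size), was 7856 to 9758 with vehicle, 8825 to 9791 with MASM7 and 7834 to 9163 with MFI8, and Thy1 was the 1 with few counts, 6 to 19 per library. The 8 muscle markers summed to 2.63 to 2.79 CPM with vehicle, 3.88 to 4.77 with MASM7 and 2.24 to 3.42 with MFI8, almost all of it Tnnt2, and the defining muscle genes Myod1, Myog, Ckm and Myl1 were at 0 in every library. Epithelial, endothelial and haematopoietic markers summed to less than 1 CPM each.

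Members spanned a wide range of levels in TPM, a unit scaled for gene length and library size, and by the deposited TPM the 10 subunits held the top 10 places. Cox8a was the highest on that scale, with 1295 and 1204 TPM in the vehicle libraries, and Cox6a1, Cox4i1, Cox6b1, Cox7a2 and Cox7b followed with vehicle means of 796, 697, 670, 616 and 600 TPM. Cox5a, Cox7c, Cox6c and Cox5b stood lower, at means of 282, 195, 173 and 139 TPM. Cox7a2l, a relative of Cox7a2 that joins complexes III and IV into supercomplexes, came next at 123 TPM ± 4.31 (SD, n = 2).

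By deposited TPM the assembly factors lay below the subunits, with a median vehicle level of 40.6 TPM against 608 TPM for the subunits. Cox14, which holds newly made core subunit 1, was the highest of them at 84.5 TPM ± 8.14 (SD, n = 2). Cox16 and the copper chaperone Cox17 were the lowest, at 6.59 and 6.08 TPM. Exons of Cox16 overlap Gm20498 over 56.8% of their length, so a count without shared reads would put its level too low. The same may hold for Cox20, Sco2 and Pet100, which also overlap another gene over at least 50% of their exon length. In the order of vehicle levels, 10 of the 30 pairs of neighbours overlapped between their vehicle libraries and so did not differ beyond their spread.

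**Figure D1:**
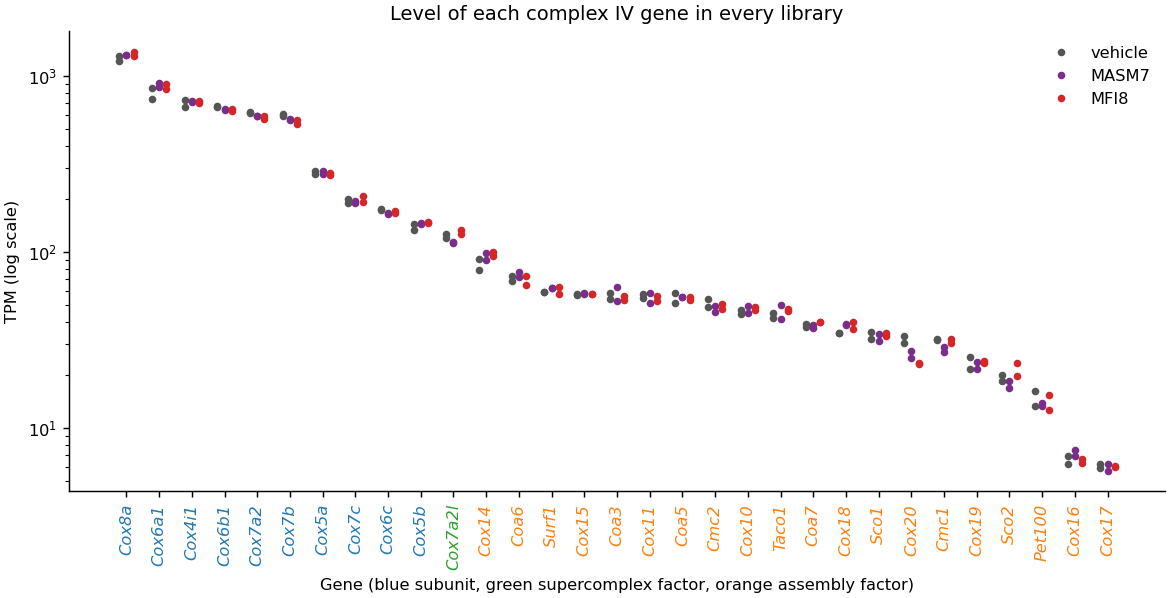
Level of the 31 complex IV members in deposited TPM on a log axis, 1 point per library, coloured by treatment and ordered by the vehicle mean. The 10 subunits run from 1250 down to 139 TPM, Cox7a2l follows at 123 TPM, and the 20 assembly factors run from 84.5 to 6.08 TPM.

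The order depended on the gene length used, for high and low members. The length implied by the deposited TPM equalled the summed exon length in GENCODE vM21 within 1 percent for 30 of 31 members. The exception was Cox14, with 2331 bases implied and 723 in the annotation, and on the latter length its level was 272 TPM, above Cox7c, Cox6c and Cox5b. For Cox17 that length is 5773 bases although the annotated transcript with its longest coding sequence has 444 bases, and with the latter length its level was 79.1 TPM in place of 6.08. With the length of that transcript for every member, Cox4i1 was the highest at 1450 TPM, Cox8a followed at 1406 TPM, and Cox6c moved from place 9 to place 3, at 1228 TPM. The median level was then 900 TPM for the subunits and 58.7 TPM for the assembly factors. Cox14 and Cmc2, the latter at 262 TPM, were above Cox5b, the lowest subunit, at 255 TPM.

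The tissue isoforms were almost silent. Cox4i2 (lung), Cox6b2, Cox7b2 and Cox8c (testis) and Cox8b (muscle) had 0 counts in all 6 libraries. With a floor of 3 counts over all libraries, and per length, they were at least 8460-fold (Cox4i2 to Cox4i1), 11000-fold (Cox6b2 to Cox6b1), 4690-fold (Cox7b2 to Cox7b), 9030-fold (Cox8c to Cox8a) and 7090-fold (Cox8b to Cox8a) lower than the partner used in most tissues. These floors cover counting error only.

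The muscle isoforms Cox6a2 and Cox7a1 had a few counts. For Cox6a2 the vehicle libraries held 0 and 0 counts, those of MASM7 3 and 6, and those of MFI8 0 and 3, and over all libraries this was 0.0453% of the Cox6a1 level (95% exact Poisson interval 0.0234% to 0.0792%, for counting error only and not for the spread between libraries). By group the mean ratio in TPM was 0% with vehicle, 0.0856% with MASM7 and 0.0307% with MFI8. Both MASM7 libraries held Cox6a2 counts and neither vehicle library did, at counts too low to be tested. Tnnt2, which held almost all counts of the muscle markers, was at 2.79 and 2.55 CPM with vehicle. It was at 3.88 and 4.70 CPM with MASM7 and at 2.19 and 3.26 CPM with MFI8. Myod1, Myog, Ckm and Myl1 were at 0 in every library, and the source of the Cox6a2 counts was not tested. For Cox7a1 the counts were 1 and 2 (vehicle), 2 and 3 (MASM7) and 0 and 1 (MFI8), or 0.0621% of the Cox7a2 level (0.0284% to 0.118%). In no library did either gene exceed 0.111% of its partner in TPM, and fewer cells of a type and less RNA per cell cannot be told apart in bulk RNA.

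The other names that did not become members are accounted for as follows. Cox6c2, annotated as a processed pseudogene and just outside the minimum, had 6 to 19 counts. The member nearest to the minimum, Cox20, had 129 to 211. Cox20b, also annotated as a processed pseudogene, had 0 to 2 counts. The pseudogenes with -ps in the symbol, Cox5b-ps and Cox7c-ps1, had 24 to 42 and 1 to 5 counts. Pet117, an assembly factor, had 0 counts in every library, but its exons lie over 100% of their length within exons of Kat14, so a count that leaves out reads shared by genes cannot show its level.

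Next, the members were compared between MFI8 and vehicle. In the quasi-likelihood fit of edgeR, adjusted by Benjamini-Hochberg over 14290 genes, 0 of the 31 members had an adjusted p under 0.05, where 0% of all genes tested did, and the smallest adjusted p among members was 0.357 (Cox20). DESeq2 called 0 members and 48 genes in all. With the replicate number as a block in edgeR, 2 members of 31 passed, Cox20 and Cox7b (adjusted p = 0.034 for each), beside 5.04% of all genes tested in that fit. With offsets for GC content and length added to the block these had edgeR adjusted p-values of 0.178 and 0.478. Cox14 then passed (0.20, edgeR adjusted p = 0.042), 1 of 31 beside 4.16% of all genes tested. The labels do not say whether a number marks a shared batch. Across 14290 genes the difference of replicate 2 from replicate 1 correlated at 0.152 to 0.188 between the groups. At an unadjusted p under 0.05 there were 3 members, all lower with MFI8 (Cox20, Cox7b and Cox7a2), or 3 of 31 beside 9.86% of all genes tested. For 1 gene taken alone, the smallest two-sided p that an exact permutation of 2 against 2 libraries allows is 0.33.

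Among the 10 subunits, 6 had a log2 fold change below 0 with MFI8 and 4 above it, with a median of -0.033, against 0.0027 for all genes tested, and the median was 0.0049 with offsets for GC content and gene length. With 1 library left out it ran from -0.061 (without vehicle replicate 2) to -0.0038 (without vehicle replicate 1). In 5 of them (Cox5a, Cox6b1, Cox6c, Cox7a2 and Cox7b) both MFI8 libraries were below both vehicle libraries, and in 0 both were above, where 19.3% of all genes tested were lower without overlap and 20.9% higher. The differences were small: the log2 fold changes of the subunits ran from -0.16 to 0.09, and their 95% intervals from -0.28 to 0.27. Per library, the summed CPM of the subunits (with TMM scaling, as for all CPM of genes here) was 1701 and 1609 with vehicle and 1642 and 1592 with MFI8, so the sums overlapped between the groups. Within each replicate number the sum was lower with MFI8, and the subunit median was -0.041 in the replicate 1 libraries alone and -0.027 in the replicate 2 libraries alone.

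Cox7b, a small membrane-spanning subunit, was the subunit with the smallest p. It was at 205 and 207 CPM with vehicle and 189 and 179 CPM with MFI8. Both MFI8 libraries were lower, by a gap wider than the difference between the libraries of either group. A choice by smallest p favours such a gap. The log2 fold change was -0.16 ± 0.053 (SE, n = 2 per group), with a 95% interval of -0.28 to -0.05 and an adjusted p of 0.398 by edgeR. With offsets for GC content and gene length it was -0.05 (edgeR adjusted p = 0.828).

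Cox7a2, the isoform of subunit 7a outside muscle, had 167 and 162 CPM with vehicle and 154 and 148 CPM with MFI8. Its groups did not overlap either, and the log2 fold change was -0.12 ± 0.051 (edgeR adjusted p = 0.471). Cox6b1, which faces the intermembrane space on the side where cytochrome c docks, had 136 and 133 CPM with vehicle and 123 and 127 CPM with MFI8, again without overlap. Its log2 fold change was -0.10 ± 0.052 (edgeR adjusted p = 0.548). With the offsets for GC content and length, Cox7a2 was at -0.06 and Cox6b1 at -0.02.

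The remaining isoforms used in most tissues did not share that order. Cox4i1, an early partner of core subunit 1, had 322 and 289 CPM with vehicle and 310 and 300 CPM with MFI8. Cox8a had 228 and 210 CPM with vehicle and 234 and 222 CPM with MFI8, and Cox6a1 had 171 and 145 CPM with vehicle and 174 and 164 CPM with MFI8. In all 3 genes the vehicle libraries were far apart, with the replicate 1 library higher, and the MFI8 libraries overlapped with them. Their log2 fold changes were -0.0016, 0.06 and 0.09 in that order, with edgeR adjusted p-values of 0.996, 0.775 and 0.711. The subunits without a second isoform in the list ranged from -0.07 (Cox6c) to 0.05 (Cox5b) on the log2 scale.

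**Figure D2:**
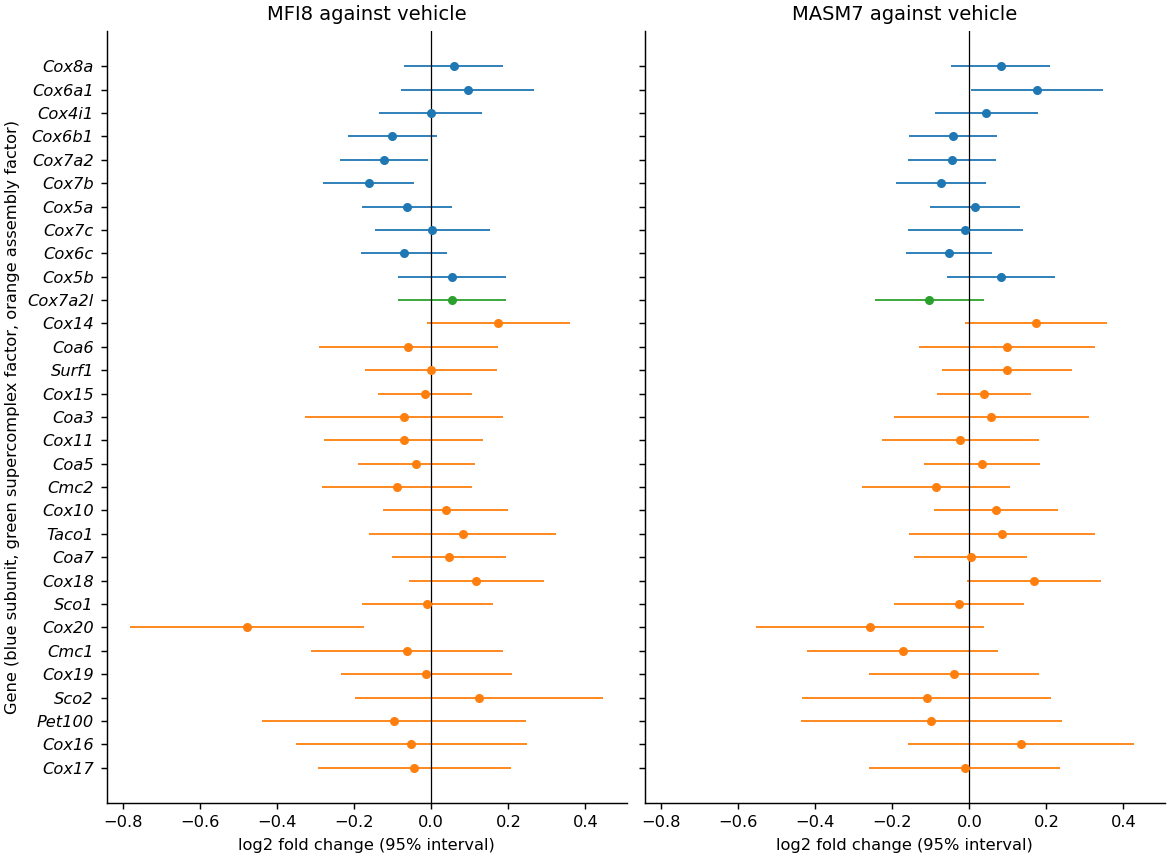
Log2 fold change of each of the 31 members against vehicle, MFI8 on the left and MASM7 on the right, with 95% intervals from edgeR and 2 libraries per group. With MFI8 the interval lies below 0 for Cox20, Cox7b and Cox7a2, and with MASM7 it lies above 0 for Cox6a1, while 0 members have an adjusted p under 0.05 in either comparison.

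Cox7a2l had a log2 fold change of the other sign than Cox7a2 with MFI8, and the difference between these genes was not tested. It had 50.4 and 52.3 CPM with vehicle and 54.8 and 51.8 CPM with MFI8, so the groups overlapped (log2 fold change 0.05 ± 0.063, edgeR adjusted p = 0.820). Of its 50-base words, 13.8% also occur in the gene Gm6969, so some of its reads cannot be placed with certainty.

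Among the 20 assembly factors, 14 had a log2 fold change below 0 with MFI8 and 6 above it, with a median of -0.028 (-0.0011 without vehicle replicate 2 and -0.00012 without MFI8 replicate 1). It was -0.0095 with offsets for GC content and length and -0.015 without the members that overlap another gene over at least 50% of their exons. In 4 both MFI8 libraries were below both vehicle libraries (Cmc1, Cox11, Cox17 and Cox20) and in 4 both were above (Coa7, Cox14, Cox18 and Taco1), beside 19.3% and 20.9% of all genes tested. The median was close to that of the subunits. An unadjusted p under 0.05 by edgeR was reached by 1 of 20 assembly factors and 2 of 10 subunits, beside 9.86% of all genes tested. The classes were not tested against each other. The 95% intervals were wider than those of the subunits, from -0.78 to 0.45 over the class, with a median SE of 0.096 against 0.055. Summed over the class, the assembly factors had 559 and 562 CPM with vehicle and 563 and 562 CPM with MFI8.

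The largest difference from vehicle was that of Cox20, a chaperone that steadies core subunit 2 until its copper site is filled. It had 174 and 206 counts with vehicle and 129 and 177 with MFI8, or 7.63 and 8.19 CPM against 5.62 and 5.74 CPM. The groups did not overlap and the libraries of each lay close together, which a gene picked for the smallest p tends to show. The log2 fold change was -0.48 ± 0.136 (SE, n = 2 per group), with a 95% interval of -0.78 to -0.17 and an edgeR adjusted p of 0.357. Of the exons of Cox20, at chr1:178319130-178322693 on the plus strand of GRCm38, 91.1% overlap exons of Hnrnpu on the other strand. The strand setting is not known, and without strand the reads of the 2 genes cannot be told apart there. An unstranded count that leaves out shared reads would rest on the remaining exon bases of Cox20. Hnrnpu, an abundant nuclear RNA-binding protein, had a log2 fold change of -0.09 ± 0.049 with MFI8 (edgeR adjusted p = 0.584). The part of this overlap in the Cox20 value was not tested. With offsets for GC content and length the Cox20 value was -0.32 (edgeR adjusted p = 0.639).

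The factors that serve the same step as Cox20, the making and insertion of the core subunits, went both ways with MFI8. Cox14 had 59.8 and 51.5 CPM with vehicle and 64.2 and 61.2 CPM with MFI8, with both MFI8 libraries above both vehicle libraries by a gap narrower than that between the vehicle libraries. Its log2 fold change was 0.17 ± 0.083 (edgeR adjusted p = 0.531), and it was 0.07 without vehicle replicate 2 and 0.29 without vehicle replicate 1. Cox18, which moves the tail of core subunit 2 across the membrane while Cox20 holds it, had 26.7 and 26.3 CPM with vehicle and 30.1 and 27.5 CPM with MFI8 (0.12 ± 0.078, edgeR adjusted p = 0.641). Over the 6 factors of this step the median log2 fold change was 0.0095, with 3 below 0 and 3 above.

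For the other steps of assembly the values were as follows. The 7 copper delivery factors (Cox11, Cox16, Cox17, Cox19, Sco1, Sco2 and Coa6) had a median of -0.044 with MFI8, with 6 below 0 and 1 above, and none had an unadjusted p under 0.05. The 3 factors of heme A, namely Cox10 and Cox15, which make it, and Surf1, which helps its insertion, had a median of -0.00042. For the 4 other factors (Cmc2, Coa5, Coa7 and Pet100) it was -0.064. The widest interval of the heme A factors was -0.17 to 0.17, that of Surf1.

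**Figure D3:**
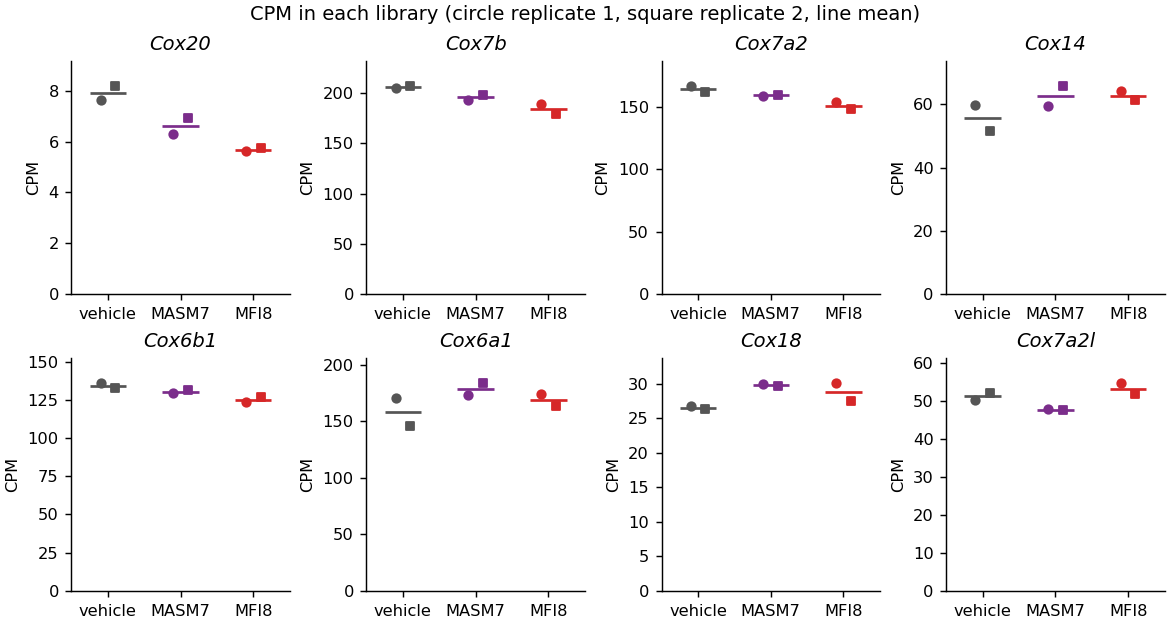
CPM of the 8 members with the 5 smallest p in at least 1 comparison, 1 point per library (circle for replicate 1, square for replicate 2) with the group mean as a line and the axis from 0. Cox20 runs from 7.63 and 8.19 CPM with vehicle to 5.62 and 5.74 CPM with MFI8, and Cox7b from 205 and 207 CPM to 189 and 179 CPM.

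MASM7 was then compared with the same vehicle libraries. By the same edgeR test, 0 of the 31 members had an adjusted p under 0.05, where 0% of all genes tested did. DESeq2 called 0 members and 2 genes in all. At an unadjusted p under 0.05 there was 1 member, Cox6a1, or 1 of 31 beside 10.2% of all genes tested. The subunits were split evenly, 5 below 0 and 5 above, with a median log2 fold change of 0.0019 (-0.042 without vehicle replicate 2, 0.032 without MASM7 replicate 1 and 0.038 with the offsets for GC content and length) and intervals from -0.19 to 0.35.

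Of the subunits, 4 (Cox6b1, Cox6c, Cox7a2 and Cox7b) had both MASM7 libraries below both vehicle libraries and 3 (Cox5b, Cox6a1 and Cox8a) had both above, where 21.6% of all genes tested were lower without overlap and 21.2% higher. Cox6a1 had 171 and 145 CPM with vehicle and 173 and 184 CPM with MASM7. Its MASM7 libraries were both above vehicle, but the vehicle libraries were farther apart than the nearest values of the groups. The log2 fold change was 0.18 ± 0.077 (SE, n = 2 per group), with a 95% interval of 0.0040 to 0.35 and an edgeR adjusted p of 0.488. It was 0.06 without vehicle replicate 2, 0.30 without vehicle replicate 1 and 0.09 with the offsets for GC content and length. Cox7b had 193 and 199 CPM with MASM7 (-0.07 ± 0.053, edgeR adjusted p = 0.629), and Cox7a2 had 159 and 160 CPM (-0.04 ± 0.051, edgeR adjusted p = 0.772). Cox6b1 was at 129 and 131 CPM, just below vehicle. Cox4i1 was at 311 and 319 CPM, between the vehicle libraries, and Cox8a at 231 and 232 CPM, above both of them (log2 fold changes 0.04 ± 0.060 and 0.08 ± 0.058).

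Cox7a2l had 47.9 and 47.7 CPM with MASM7, both below the vehicle libraries (log2 fold change -0.10 ± 0.063, edgeR adjusted p = 0.579). For the assembly factors the median was 0.018 (0.040 without vehicle replicate 2, 0.041 without MASM7 replicate 1 and 0.035 without the overlapping members), with 9 below 0 and 11 above, and 2 (Cmc1 and Cox20) lower and 3 (Cox16, Cox18 and Surf1) higher without overlap, beside 21.6% and 21.2% of all genes tested. Cox18 had 29.9 and 29.6 CPM with MASM7, both above vehicle (0.17 ± 0.078, edgeR adjusted p = 0.501). Cox14 had 59.5 and 65.8 CPM, which overlapped with vehicle (0.17 ± 0.083, edgeR adjusted p = 0.501, and 0.07 and 0.28 without vehicle replicate 2 and 1). Cox20 had 6.29 and 6.94 CPM, both below vehicle (-0.26 ± 0.133, edgeR adjusted p = 0.528, and -0.11 with the offsets). By step, the median was 0.071 for core subunit synthesis and insertion, -0.023 for copper delivery, 0.069 for heme A and -0.042 for the other factors. The summed CPM with MASM7 was 1658 and 1695 for the subunits and 564 and 587 for the assembly factors.

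The median size of the log2 difference between the 2 vehicle libraries was 0.066 for the subunits and 0.093 for the assembly factors. The fold changes had a median size of 0.067 (MFI8) and 0.049 (MASM7) for the subunits and of 0.061 (MFI8) and 0.086 (MASM7) for the assembly factors. The first is a difference between single libraries and the second one between means of 2 libraries, so the former is the larger by construction where nothing differs.

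**Figure D4:**
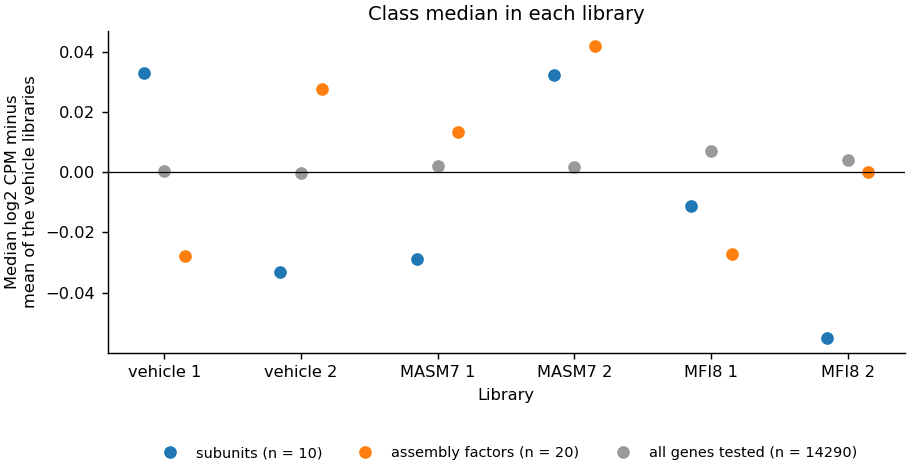
Median over the members of a class of log2 CPM minus the mean of the vehicle libraries, per library, for the 10 subunits, the 20 assembly factors and all 14290 genes tested. The subunit median is 0.033 and -0.033 in the vehicle libraries, -0.029 and 0.032 with MASM7, and -0.011 and -0.055 with MFI8, so that the groups overlap.

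Core subunit 1, encoded by mitochondrial DNA as mt-Co1, is no member by name but carries the heme A and 1 of the copper sites that the assembly factors fill. Its libraries held 5523 and 6071 CPM (vehicle), 4762 and 4990 CPM (MFI8) and 5404 and 5201 CPM (MASM7). The libraries of both compounds were below both vehicle libraries. The log2 fold change was -0.25 ± 0.055 with MFI8 (95% interval -0.37 to -0.13, edgeR adjusted p = 0.265; DESeq2 adjusted p = 0.036) and -0.13 ± 0.055 with MASM7 (edgeR adjusted p = 0.484). With offsets for GC content and length these were -0.15 and -0.028, and without vehicle replicate 2 the MASM7 value was -0.06. With the replicate block the edgeR adjusted p with MFI8 was 0.00136, and 0.00652 with block and offsets. The other core subunits could not be measured. mt-Co2 had 0 to 3 counts and mt-Co3 had 1 to 5 counts per library, and 100% and 99.9% of their 50-base words also occur in other annotated genes, against 51.1% for mt-Co1.

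The neighbouring genes of the pathway were taken from a list of 32, of which 31 were found and 27 tested, and 0 of the 27 had an adjusted p under 0.05 by edgeR in either comparison. With the replicate block 2 of the 27 passed for MFI8 (mt-Co1 and Lonp1), beside 5.04% of all genes tested, and 0 for MASM7. With block and offsets, 2 passed for MFI8 (mt-Co1 and Yy1), beside 4.16%. With MFI8, 17 were below 0 and 10 above (median log2 fold change -0.048), and at an unadjusted p under 0.05 there were 3 lower (mt-Co1, Hif1a and Yy1) and 1 higher (Lonp1). With MASM7, 16 were below 0 and 11 above (median -0.020), with 2 lower (mt-Co1 and Hif1a) and 2 higher (Cyc1 and Lonp1) at that p. These are 4 of 27 in each comparison, beside 9.86% of all genes tested with MFI8 and 10.2% with MASM7. Lonp1, the matrix protease that degrades unassembled and isoform-specific subunits, had 147 and 144 CPM with vehicle, 165 and 165 CPM with MFI8 and 160 and 162 CPM with MASM7. All 4 treated libraries were above both vehicle libraries. Its log2 fold change was 0.18 ± 0.050 with MFI8 and 0.15 ± 0.050 with MASM7, with edgeR adjusted p-values of 0.349 and 0.473.

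Hif1a, the oxygen-regulated transcription factor that acts on Lonp1 and on the Cox4 isoforms under hypoxia, had 145 and 153 CPM with vehicle, 135 and 136 CPM with MFI8 and 139 and 131 CPM with MASM7 (edgeR adjusted p = 0.468 and 0.477). Cyc1, the cytochrome c1 subunit of complex III, had 294 and 292 CPM with vehicle and 310 and 343 CPM with MASM7 (0.16 ± 0.058, edgeR adjusted p = 0.477). With MFI8 it had 308 and 303 CPM, also above both vehicle libraries (0.06 ± 0.058, edgeR adjusted p = 0.763). Cycs, the cytochrome c that feeds complex IV, had 109 and 118 CPM with vehicle, 104 and 111 CPM with MFI8 and 99.7 and 109 CPM with MASM7. Ndufa4, a later-recognised subunit of complex IV, had 221 and 220 CPM with vehicle and 211 and 203 CPM with MFI8 (-0.09 ± 0.050, edgeR adjusted p = 0.581).

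The promoters of complex IV genes are known to bind the factors NRF-1, GABP (also called NRF-2, of the ETS family) and YY1, so the members' promoters were searched for their motifs. RefSeq windows on GRCm38.p6, from 250 bases before to 50 after the start, were found for 26 of the 31 members. The motifs, searched on both strands, were CCGGAAG (ETS), GCGCA and GCGC with any 1 base between them (NRF-1) and AAGATGGC (YY1), and no matches of different motifs overlapped in these windows. The stretches shown are those of Cox20 and Cox7b, the members with the smallest p with MFI8, and of Cox6a1, the one with the smallest p with MASM7. Capitals mark a motif match, and Cox7b has none in its window.
Cox20: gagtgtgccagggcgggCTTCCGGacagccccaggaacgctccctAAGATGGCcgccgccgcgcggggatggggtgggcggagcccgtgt
Cox7b: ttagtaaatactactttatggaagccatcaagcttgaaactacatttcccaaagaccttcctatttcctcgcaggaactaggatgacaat
Cox6a1: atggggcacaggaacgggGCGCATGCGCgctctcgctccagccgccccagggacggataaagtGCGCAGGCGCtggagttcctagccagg

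The Cox20 stretch is chr1:178319033-178319122 on the plus strand, the Cox7b stretch chrX:106015580-106015669 on the plus strand and the Cox6a1 stretch chr5:115349049-115349138 on the minus strand. Each has 90 bases, from -120 to -31 of the start for Cox20 and Cox7b and from -180 to -91 for Cox6a1. Cox20 holds an ETS match, read on the other strand, and a YY1 match, and Cox6a1 holds a pair of NRF-1 matches, with an ETS match closer to its start outside the stretch shown.

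The ETS motif was the most common of them, in 12 of the 26 members (46.2%), beside 20.7% of the tested genes with a window and 9.93% of all genes with one. It was in 3 of 8 subunits (Cox6a1, Cox6b1 and Cox8a) and in 9 of 17 assembly factors. The NRF-1 motif was in 1 of 26 members, beside 12.0% of tested genes, and the YY1 motif in 2 (Cox10 and Cox20), beside 5.51%. With MFI8 the log2 fold changes ran from -0.48 to 0.17 in members with an ETS match and from -0.16 to 0.12 in those without. The median was -0.013 with a match (12 members) and -0.026 without (14 members) for MFI8, and 0.053 and -0.017 for MASM7.

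Some members share exons with other genes, which bears on how well their counts measure them. Of the 31, 16 had no exon overlap, and 4 assembly factors overlapped over at least 50% of their exon length, namely Cox20, Sco2 (91.8%, with Tymp and Ncaph2), Cox16 (56.8%, with Gm20498) and Pet100 (52.6%, with Pcp2). Sco2, which brings copper to core subunit 2, had 7.10 and 6.52 CPM with vehicle and 8.06 and 6.84 CPM with MFI8, and Pet100 had 6.71 and 8.15 CPM with vehicle and 6.27 and 7.58 CPM with MFI8. The groups overlapped for both genes. None of the 10 subunits overlapped another gene over that share of its exons. Of the 31 members, 9 had at least 10% of their 50-base words in another gene, among them the subunits Cox7c (22.1%) and Cox5b (11.9%).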

How the data were processed

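RNA of WT MEFs was sequenced from 6 polyA libraries in 3 groups of 2. The authors used Trimmomatic for trimming, STAR for alignment to GRCm38 and featureCounts for counting on exons. The strand setting and annotation release are not given in the sources used here. The authors deposited raw counts per gene, TPM values and counts divided by size factors, and the last were not used here. The doses and times come from the study's legends, not the sample labels.

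Raw counts of all 6 libraries were fitted in edgeR 4.0.16 (R 4.3.3) with TMM, filterByExpr (14290 genes) and 1 coefficient per group, and tested by quasi-likelihood, with p-values adjusted over all genes (Benjamini-Hochberg, 0.05). The SE came from the log2 fold change and the square root of F. All 31 members passed the filter. CPM used TMM factors; marker sums used library size alone, and log2 CPM of single libraries a prior count of 2. Levels between genes used TPM. Exons, overlaps and shared words of 50 bases came from GENCODE vM21. The fit was also run on simulated counts, and no result given here rests on that run.

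Alternatives were DESeq2 1.42.0 (size factors alone, and its Wald test), library size alone, 2 other filters, 2 groups only, the replicate block, limma 3.58.1 on log2(TPM + 1), offsets for GC content and length, and each library left out. Values of replicate 1 and 2 alone, transcript lengths and the removal of overlapping genes were added after seeing the data. Members and lists were chosen with earlier results of these data known. Values in every library were given for the 5 members with the smallest unadjusted p in each comparison, the members of isoform families with a tissue isoform, Cox7a2l and the core subunits; Sco2 and Pet100, and the pathway genes named, were chosen after their values were seen.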

Additional observations from a re-analysis of the deposited data

How the results depend on the processing

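The count of members with an adjusted p under 0.05 stayed 0 for MASM7 in all alternatives and for MFI8 in all but 2. The libraries of the groups share only the numbers 1 and 2, and across 14290 genes the difference of replicate 2 from replicate 1 correlated at 0.188 (vehicle and MASM7), 0.152 (vehicle and MFI8) and 0.165 (MASM7 and MFI8). With the replicate block, 2 members passed for MFI8, Cox20 (-0.48, edgeR adjusted p = 0.034) and Cox7b (-0.16, adjusted p = 0.034), and the genes called went from 0 to 720 for MFI8 and 554 for MASM7. With the block and GC and length offsets together, 1 member passed for MFI8, Cox14 (0.20, edgeR adjusted p = 0.042), with 595 and 152 genes called. Without a filter 256 and 127 genes were called, with DESeq2 48 and 2, and for MASM7 with only the 2 groups compared 1. Leaving out 1 library gave 0 to 26 genes for MFI8, the 26 without MFI8 replicate 1, and 0 to 2 for MASM7. mt-Co1 passed for MFI8 without a filter (adjusted p = 1.54e-07), in the block fit (0.00136), in the fit with offsets and block (0.00652) and with DESeq2. Class medians lay near 0. The subunit median with MASM7 ran from -0.042 to 0.032 with 1 library left out (-0.042 without vehicle replicate 2), and was -0.055 in replicate 1 and 0.045 in replicate 2 alone. With MFI8 it ran from -0.061 to 0.0050, below 0 in 16 of 18 alternatives. The assembly median with MFI8 ran from -0.034 to -0.00012 with 1 library left out. With MASM7 it was 0.058 in replicate 2 alone and -0.0066 in replicate 1 alone, the 1 of 19 alternatives below 0. With MFI8 it was 0.00034 by limma and 0.015 in replicate 1 alone. Cox14 with MASM7 turned to -0.0053 in replicate 1 alone. The cause was not tested. Leaving out 1 library gave Cox6a2 to Cox6a1 TPM ratios of 0.0603% to 0.111% with MASM7, and the isoform ratio on protein length was not run. GC and length offsets moved Cox7b, Cox7a2, Cox6b1 and mt-Co1 with MFI8, and Cox6a1, Cox20 and mt-Co1 with MASM7, toward 0 by over 1.5 times. Depth limits what can be said of members with few counts, such as Cox20 with 129 to 211.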
